A study of Mus musculus with 34 samples.

Results

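The second postnatal week of the mouse cornea was examined by setting whole-cornea arrays labelled postnatal day 14 (P14, 3 arrays) against those labelled postnatal day 7 (P7, 3 arrays), which are 6 of the 34 arrays of a series that runs from the embryo to old age. The members are these 6 arrays, chosen by their age labels, and the comparison was made over all 12998 genes that could be named and measured. Both ages came from wild-type mice of the CB6 strain, with no treatment, so postnatal age is the one difference the labels give. Corneas were dissected from whole globes, their RNA was amplified from poly(A) tails, and nothing in the labels ties an array to an animal of its own. The p-values therefore speak of the spread among the arrays, which may be technical.

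The cornea has a stratified surface epithelium, a stroma of collagen fibrils laid down by keratocytes, and an inner endothelium that pumps fluid out of the stroma. In the mouse the eyelids are fused at birth and part near the end of the second postnatal week. Around that time the epithelium gains cell layers and takes on a barrier of tight junctions, membrane mucins and secreted protease inhibitors, while the stroma compacts and becomes transparent.

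The markers of the 3 corneal layers were present on all 6 arrays. Krt12, the cornea's own keratin, had intensities of 10706, 8750 and 9120 at P14 and 9058, 10419 and 6793 at P7, and the ages overlapped (log2 difference 0.14, SE 0.19). Kera, the stromal proteoglycan keratocan, had 9089, 5428 and 7158 at P14 and 8622, 6325 and 6978 at P7, also overlapping. Slc4a11, a transporter of the endothelium, had 282, 477 and 317 at P14 and 620, 510 and 678 at P7, lower on every P14 array, with a log2 difference of -0.75 (SE 0.29, adjusted p = 0.676).

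Some of the arrays stood apart before any result was read. Replicate 2 of P14 carried lens RNA: the median of 22 lens genes, in log2(intensity + 16), was 7.47, 11.52 and 8.70 at P14 and 7.84, 7.83 and 7.76 at P7. Retina genes were also highest there, with a median of 12 genes of 6.94, 8.94 and 7.92 at P14 and 7.16, 7.25 and 7.24 at P7. P14 replicate 3 also lay above every P7 array in both lists. Without P14 replicate 2 the median difference was 0.10 for lens genes and 0.36 for retina genes. Sex markers divided the arrays too. Xist, the RNA of the inactive X chromosome, read 24.9, 85.3 and 383 at P14 and 5353, 66.0 and 4693 at P7, while Eif2s3y, on the Y chromosome, read 1404, 1292 and 1227 at P14 and 7.23, 1432 and 3.78 at P7. All P14 arrays and replicate 2 of P7 therefore had the male pattern, and replicates 1 and 3 of P7 the female one. Across genes, replicate 2 of P7 correlated with P14 replicates 1 and 3 at r = 0.968 and 0.969, with P14 replicate 2 at r = 0.948, and with P7 replicates 1 and 3 at r = 0.960 and 0.946, as a description. Age, sex and the make-up of the dissected tissue cannot be told apart by the age labels alone, and values against P7 replicate 2 alone are given beside most of the gene groups below. In that setting the P7 group is 1 array, which is assumed to vary like the arrays of the other ages. Across the 6 arrays, the median intensity lay between 188.2 and 232. In whole corneas, fewer cells of a type and less RNA per cell cannot be told apart.

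Few single genes passed the test between the ages. With limma and Benjamini-Hochberg adjustment over all genes, 2 genes had an adjusted p under 0.05, which is 0.0154% of those tested, and none of them differed by 2-fold (0 genes, 0%). At an unadjusted p under 0.05 there were 819 genes, 6.3% of those tested. The P14 arrays all lay above the P7 arrays for 621 genes (4.78%) and all below them for 680 genes (5.23%). With 3 arrays against 3, random order alone would separate the ages for a share close to these in each direction. Both together, no overlap and an unadjusted p under 0.05, held for 224 genes higher at P14 (1.72%) and 277 lower (2.13%). The 95% interval of the difference lay within 1 log2 unit of 0, that is within 2-fold, for 12024 genes (92.5%), and within 0.5 log2 units for 7461 genes (57.4%). The median difference over all genes was -0.02. The counts moved when single arrays were left out. Leaving out P7 replicate 2 sets only P7 arrays of the female pattern against P14 arrays of the male one. Age and sex cannot be told apart there. Without P7 replicate 2, 14 genes had an adjusted p under 0.05, 7 of them 2-fold. By the joint criterion 473 were then higher and 619 lower. Without P14 replicate 1 the joint counts were 494 higher and 729 lower, and without P7 replicate 3, 140 were higher. With an array left out, no overlap is met more easily, so these joint counts are not like for like with those of all 6 arrays.

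**Figure D1:**
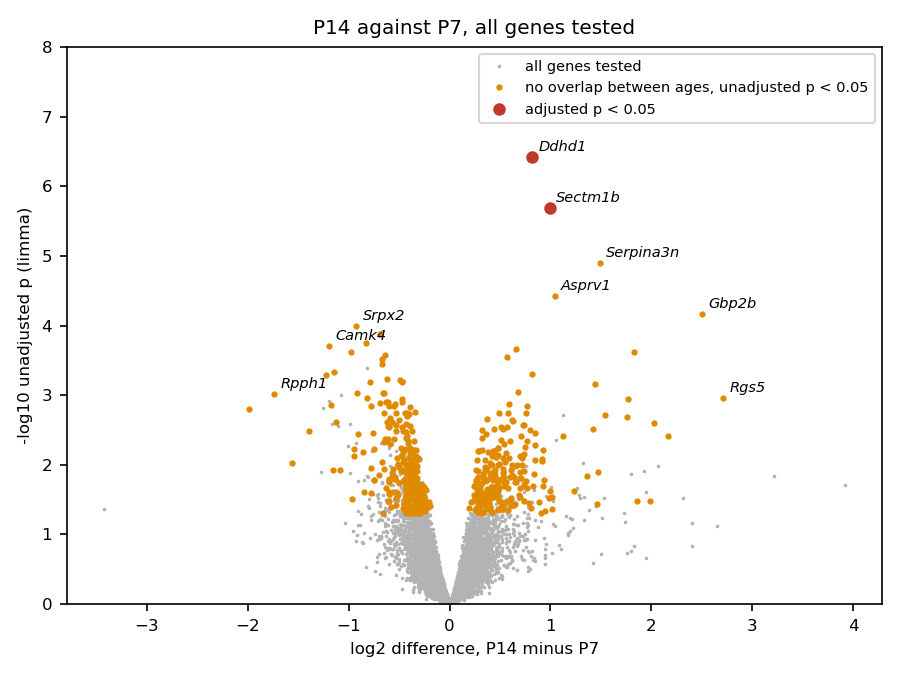
The difference between the ages for each gene, P14 minus P7 on the log2 scale, against the negative log10 of its unadjusted p from limma. Most genes lie near 0, the 2 genes with an adjusted p under 0.05, Ddhd1 and Sectm1b, are both higher at P14, and Rgs5 and Gbp2b are the labelled genes farthest to the right.

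Ddhd1, a phospholipase that acts on phosphatidic acid, read 1491, 1733 and 1574 at P14 against 938, 1050 and 729 at P7. Every P14 array exceeded every P7 array, and Ddhd1 rose by 0.82 on the log2 scale (SE 0.12, adjusted p = 0.00496 by limma). Sectm1b, which encodes a secreted and transmembrane protein, read 415, 289 and 281 at P14 against 162, 136 and 168 at P7. Its P14 arrays also lay above all of those of P7, and it rose by 0.99 (SE 0.16, adjusted p = 0.0134 by limma). Against P7 replicate 2 alone, the array of like sex, the differences were 0.60 (SE 0.15) for Ddhd1 and 1.16 (SE 0.23) for Sectm1b. The adjusted p was then 1 and 0.47 by limma, with the spread of a lone P7 array taken from the other groups. Without P7 replicate 1 or P14 replicate 1, Sectm1b had an adjusted p of 0.0685 and 0.0774, and with trend and robust moderation 0.111. With the 18 arrays up to P14 alone, Ddhd1 had an adjusted p of 0.074. With the 6 arrays fitted alone, neither gene passed (adjusted p = 0.256 for Ddhd1 and 0.189 for Sectm1b).

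Both genes were picked for an adjusted p under 0.05 in the fit of all ages. The 250 bases before and 50 bases after the start of each are shown (RefSeq, GRCm38.p6). That of Ddhd1 is chr14:45658094-45658393 and that of Sectm1b is chr11:121063520-121063819, both on the minus strand. Neither holds the motif TTTC, 2 bases of any kind, then TTTC again, which interferon regulatory factors bind and which was searched on both strands. It is in 3.44% of the 32851 windows of the same length.
Ddhd1: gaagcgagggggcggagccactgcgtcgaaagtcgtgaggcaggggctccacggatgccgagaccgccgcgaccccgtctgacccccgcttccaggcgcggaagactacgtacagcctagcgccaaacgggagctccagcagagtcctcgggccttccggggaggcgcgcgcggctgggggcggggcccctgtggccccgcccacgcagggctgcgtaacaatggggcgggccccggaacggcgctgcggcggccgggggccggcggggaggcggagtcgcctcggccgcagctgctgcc
Sectm1b: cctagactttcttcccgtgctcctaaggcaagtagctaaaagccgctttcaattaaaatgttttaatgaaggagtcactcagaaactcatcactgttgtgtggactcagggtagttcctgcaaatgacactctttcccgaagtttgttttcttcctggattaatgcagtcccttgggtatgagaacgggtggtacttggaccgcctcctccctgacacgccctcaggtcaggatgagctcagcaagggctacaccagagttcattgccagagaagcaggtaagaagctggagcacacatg

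The next genes in order of p did not pass. Serpina3n, a secreted serine protease inhibitor of the acute phase, read 681, 258 and 234 at P14 and 120, 110 and 109.5 at P7, with a log2 difference of 1.49 (SE 0.27, adjusted p = 0.0548 by limma). Asprv1, an aspartic protease of cornifying epithelium, read 6729, 5794 and 5355 at P14 and 2500, 3450 and 2737 at P7, with a log2 difference of 1.04 (SE 0.21, adjusted p = 0.122). Neither gene overlapped between the ages.

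Gbp2b, an interferon-inducible GTPase, gave one of the widest separations, 641, 430 and 478 at P14 against 38.9, 43.5 and 228 at P7, a log2 difference of 2.50 (SE 0.52, adjusted p = 0.179 by limma). Replicate 3 of P7 lay above the other P7 arrays but below every P14 array. Other interferon response genes differed less: of 15 tested, 3 were higher at P14 without overlap (4.78% of all genes) and none lower (5.23%), with a list median of 0.13, and 0.10 against P7 replicate 2 alone. Ifit3, an antiviral effector, read 894, 716 and 903 at P14 and 418, 524 and 607 at P7, a log2 difference of 0.69 with an unadjusted p of 0.125. Ifih1, a sensor of double-stranded RNA, read 480, 315 and 377 at P14 and 272, 294 and 253 at P7, a log2 difference of 0.48. The windows around the starts of Gbp2b (chr3:142594597-142594896, plus strand) and Ifit3 (chr19:34583279-34583578, plus strand) both hold the motif, marked in capitals, at 137 bases before the start of Gbp2b and at 156 and 122 bases before that of Ifit3. The list's genes hold it often as a class: of 13 genes with a window, 8 hold it in any window (61.5%). That share counts genes, unlike the 3.44% of all windows given above, and a match is a description of these letters only.
Gbp2b: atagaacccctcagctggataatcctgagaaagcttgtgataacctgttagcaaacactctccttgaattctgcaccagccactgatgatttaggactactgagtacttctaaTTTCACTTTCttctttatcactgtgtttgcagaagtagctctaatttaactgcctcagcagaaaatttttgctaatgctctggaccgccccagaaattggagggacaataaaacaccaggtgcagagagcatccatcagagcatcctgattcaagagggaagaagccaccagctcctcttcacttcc
Ifit3: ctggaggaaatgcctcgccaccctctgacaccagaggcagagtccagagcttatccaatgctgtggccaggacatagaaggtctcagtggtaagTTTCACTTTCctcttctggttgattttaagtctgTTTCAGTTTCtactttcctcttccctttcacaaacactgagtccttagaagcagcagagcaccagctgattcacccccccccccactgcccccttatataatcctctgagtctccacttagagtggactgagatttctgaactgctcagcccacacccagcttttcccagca

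By size, the 15 genes farthest above P7 among those with no overlap and an unadjusted p under 0.05 were of mixed kinds, and none of them passed the adjusted test. Rgs5, a regulator of G protein signalling known from pericytes, read 3395, 3410 and 4723 at P14 and 560, 1636 and 191 at P7, a log2 difference of 2.71 (SE 0.73), and of 1.21 against P7 replicate 2 alone. Tspan8, a tetraspanin, differed by 2.02, Cmah, which makes the sialic acid Neu5Gc, by 1.82, Cyp2f2, a cytochrome P450, by 1.77 and Ctla2a, a cysteine protease inhibitor, by 1.76. Cyp2f2 read 1434, 1622 and 330 at P14 and 228, 233 and 324 at P7, so its lowest P14 array barely exceeded its highest P7 array. Egr1, an immediate early transcription factor, read 1267, 1125 and 465 at P14 and 277, 402 and 217 at P7 (1.54). Adgrf1, an adhesion receptor, differed by 1.48, Nccrp1, an F-box protein, by 1.44 and Snx31, a sorting nexin, by 1.36. Rp1, Fam25c, Nefl and Gnat1 also stood among the 15, and all of them were highest on P14 replicate 2, the array highest in lens and retina genes. Rp1 and Gnat1 serve photoreceptors and Nefl neurons, and Rp1 read 66.4, 782 and 242 at P14 and 22.2, 65.9 and 43.6 at P7. Leaving out that array keeps 11 of the 15 in the list of the farthest above and brings in Tmprss11a, Ifi203, Ly6g6c and Phf11d.

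The 15 genes farthest below P7 included several secreted or guidance factors, again with none past the adjusted test. Slit2, a guidance ligand, read 616, 1034 and 468 at P14 and 2077, 1501 and 1148 at P7, a log2 difference of -1.17 (SE 0.32). Angpt2, a modulator of vessel growth, read 233, 417 and 277 at P14 and 750, 736 and 576 at P7, a difference of -1.14 (SE 0.28). Matrix proteins were among them: Adamts3, a protease that trims procollagen, at -1.39, Svep1 at -1.12, Smoc1 at -0.98, Vit at -0.97 and Srpx2 at -0.93. Apela, a peptide ligand of the apelin receptor, differed by -1.56 and Camk4, a calcium-dependent kinase, by -1.20. For Camk4 the 3 P14 arrays read 289, 261 and 253, and the P7 arrays 934, 303 and 891, so its separation rests on P7 replicates 1 and 3, and against P7 replicate 2 alone the difference was -0.17. Rpph1, the RNA of RNase P, which is not normally polyadenylated, differed by -1.74, and Olfr1307, Olfr68, Bex4, Rragd and Lvrn completed the 15. Olfr1307 read 4.49 on one P14 array, within the offset of 16 that was added before the log. Leaving out P14 replicate 2 keeps 9 of the 15. All 30 genes named from the extremes kept their direction in every alternative that gave them a value, which was 20 or 21 for each gene. They were chosen for no overlap between the same arrays, so most alternatives, such as leaving out an array, could not turn it. Nothing is read from the kept direction.

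**Figure D2:**
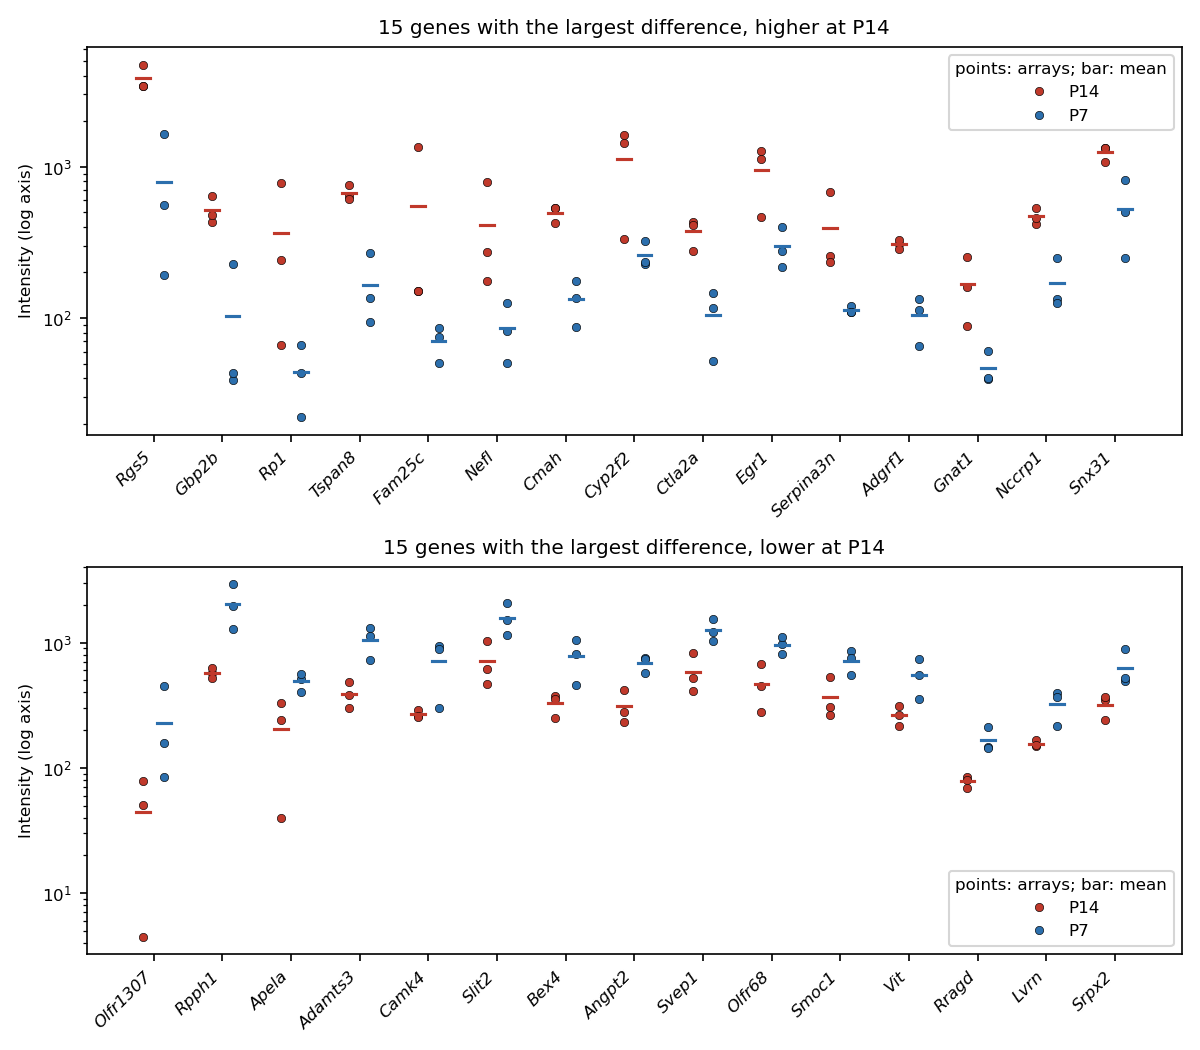
Intensity on a log axis of the 15 genes farthest above and the 15 farthest below P7, with each point an array, each bar the mean of 3 arrays, and P14 left of P7. P14 replicate 2, the array highest in lens and retina genes, is the high P14 point of Rp1, Fam25c, Nefl and Gnat1.

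Genes of the surface epithelium read slightly higher at P14 as a group. Of 15 corneal epithelial products all 15 had a positive difference, 4 were higher without overlap (background 4.78%) and none lower, and their median was 0.21, against -0.02 over all genes. Their medians per array were 12.55, 12.23 and 12.26 at P14 and 11.50, 11.86 and 11.63 at P7. Gsto1, a glutathione transferase, read 6056, 4786 and 5314 at P14 and 2800, 3713 and 3151 at P7, a log2 difference of 0.74 (SE 0.25), and Mal, a membrane proteolipid, 5965, 4988 and 4882 at P14 and 2963, 4226 and 3794 at P7 (0.54). Of 17 epithelial transcription factors, 5 were higher without overlap and 1 lower (Tfap2b; 5.23% of all genes), with a median of 0.34. Klf5, a Kruppel-like factor of epithelia, read 1312, 1084 and 1366 at P14 and 686, 976 and 798 at P7 (0.61). Elf3, an Ets factor, read 774, 537 and 521 at P14 and 281, 456 and 285 at P7 (0.82), and Ovol1, a zinc finger repressor, 246, 197 and 203 at P14 and 124, 151 and 106 at P7 (0.70). Against P7 replicate 2 alone the medians were 0.09 for the products and -0.02 for the factors.

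Mucins, stress keratins and Ly6 family genes had list medians of 0.70, 0.61 and 0.43. In each list the count without overlap is read against 4.78% of all genes higher. Of 7 mucins and glycocalyx genes, 4 were higher without overlap and all 7 were positive. Muc4, a membrane mucin of the ocular surface, read 3152, 2829 and 2903 at P14 and 1596, 1808 and 1281 at P7 (0.93, SE 0.31), and Muc1 1509, 1037 and 1140 at P14 and 579, 788 and 825 at P7 (0.74). All 4 stress keratins were higher without overlap: Krt6a read 4335, 2965 and 3504 at P14 and 2013, 2799 and 2253 at P7, and Krt16 684, 335 and 384 at P14 and 279, 306 and 211 at P7. Of 15 proteases of the Tmprss11 cluster and kin 5 were higher without overlap and none lower, with a median of 0.27, and Tmprss11d stood on the other side at -0.67 with overlapping arrays. Of 14 claudins and tight junction genes 3 were higher without overlap, the median was 0.33, and Cldn3, a barrier claudin, read 439, 425 and 389 at P14 and 215, 362 and 292 at P7. Of 9 Ly6 and Slurp family genes 3 were higher without overlap, among them Ly6e at 1489, 814 and 1413 at P14 and 745, 657 and 580 at P7 (0.85). Against P7 replicate 2 alone the medians were 0.28 for mucins, 0.41 for stress keratins, 0.12 for the proteases, -0.02 for tight junction genes and 0.20 for the Ly6 family. None of these genes had an adjusted p under 0.05.

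The arrays of separated layers gave a further grouping. The 63 genes at least 4-fold higher on the P28 epithelium array than on the P7 stroma array, a pair with 1 array each and different ages, had a median difference of 0.39 at P14, with 56 of them positive, 17 higher and 1 lower without overlap (4.78% and 5.23% of all genes). Their array medians were 10.87, 10.63 and 10.85 at P14 and 10.35, 10.83 and 10.18 at P7, so P7 replicate 2 lay within the P14 range, and against it alone the median difference was 0.04. The 118 genes at least 4-fold higher on the stroma array had a median difference of -0.03, with 8 higher and 8 lower without overlap. Their array medians were 8.53, 9.54 and 8.94 at P14 and 8.75, 8.74 and 8.72 at P7. P14 replicate 2, the array highest in lens genes, was the highest, and without it the median difference was -0.06. The set need not be of stromal cells alone. Fabp7, a fatty acid binding protein of glia, is in it, at 173 on the epithelium array and 3664 on the stroma array.

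**Figure D3:**
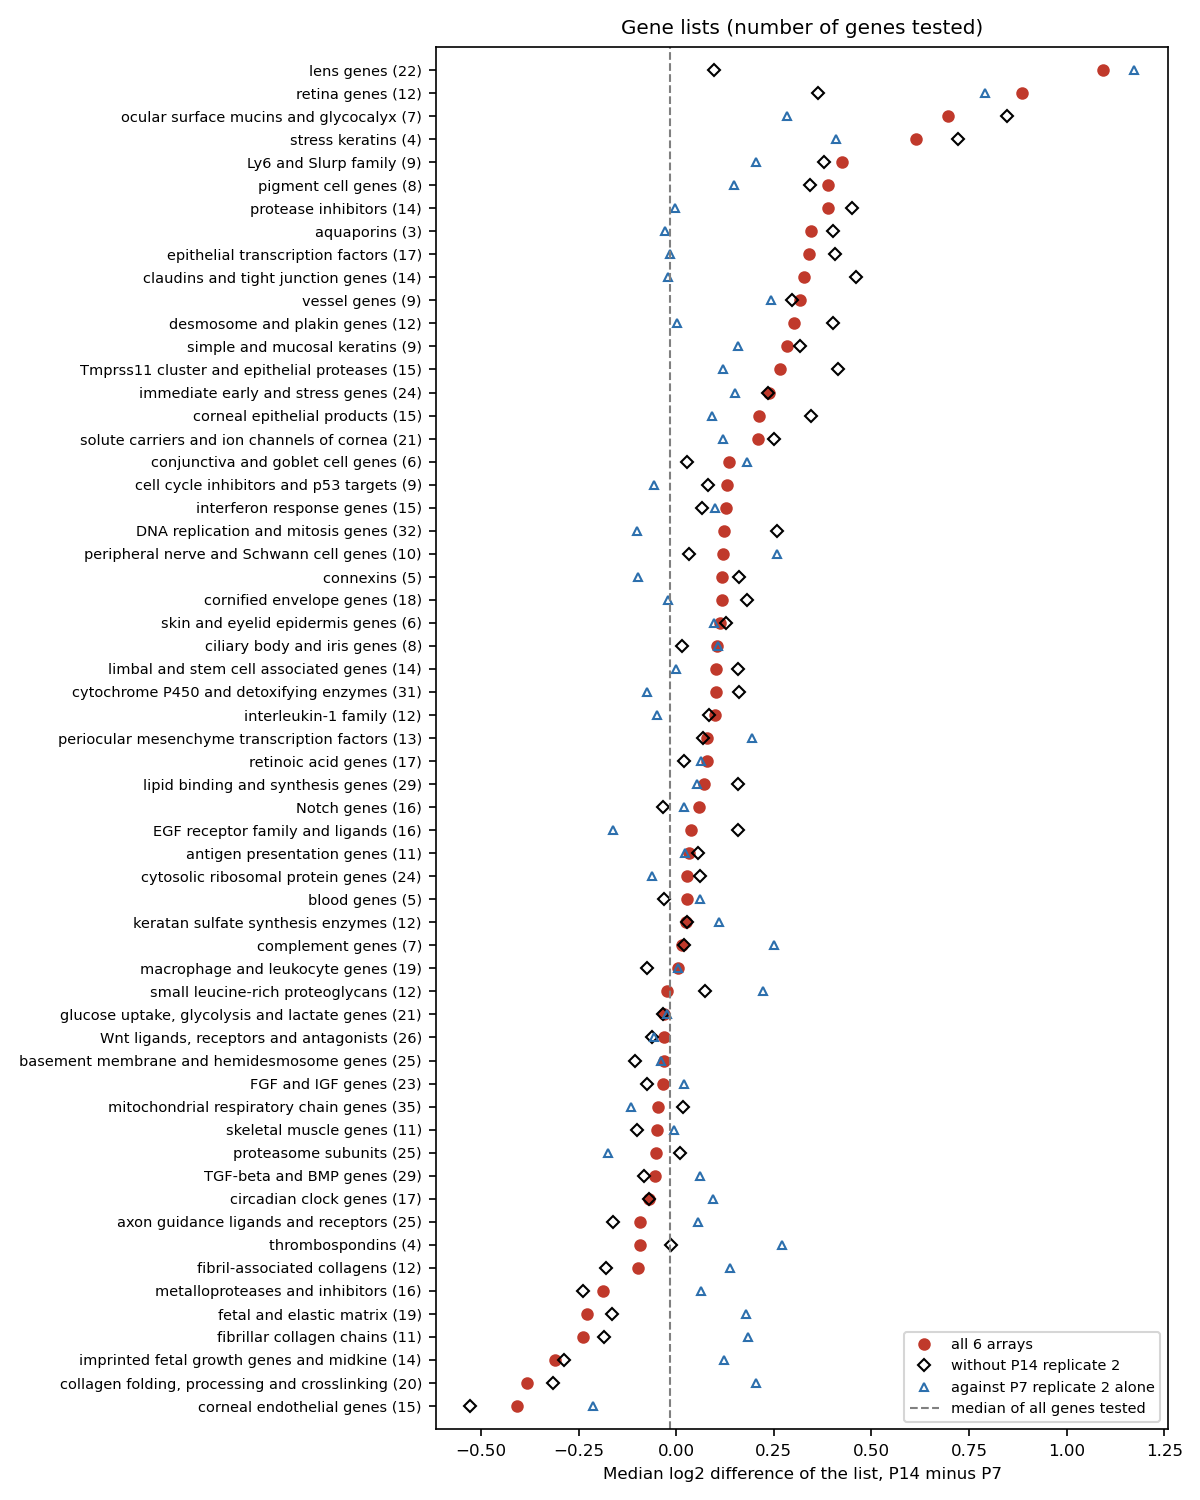
Median log2 difference, P14 minus P7, of each gene list except the sex-linked one, with the number of tested genes in brackets, over all 6 arrays, without P14 replicate 2 and against P7 replicate 2 alone. Lens and retina genes move with P14 replicate 2, and several epithelial and collagen lists move toward or across 0 when P7 replicate 2 is the only P7 array.

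Immediate early and stress genes leaned higher at P14: 7 of 24 were higher without overlap (4.78% of all genes) and none lower (5.23%). Of the 24, 21 had a positive and 3 a negative difference. The median was 0.24, with 0.15 against P7 replicate 2 alone. Dusp1, a phosphatase that damps MAP kinases, read 968, 943 and 756 at P14 and 381, 687 and 586 at P7 (0.71), and Hspa1a, an inducible heat shock protein, 3129, 2706 and 2829 at P14 and 1855, 2257 and 2093 at P7 (0.48). Fos, the founding member of this class, differed by 0.65 with an unadjusted p of 0.13.

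Stromal collagen genes leaned the other way with overlapping arrays. Of 11 fibrillar collagen chains 10 had a negative difference, none separated the ages, and the median was -0.24; of 20 genes of collagen folding, processing and crosslinking 17 were negative and none separated the ages, with a median of -0.38. Col1a1, a chain of type I collagen, read 3574, 4072 and 3975 at P14 and 6159, 2532 and 6667 at P7, so replicates 1 and 3 of P7 were high and replicate 2 was below every P14 array. Plod1, a lysyl hydroxylase, read 1150, 581 and 715 at P14 and 1992, 636 and 1859 at P7, so its P7 replicates 1 and 3 were high too and replicate 2 lay within the P14 range. Against P7 replicate 2 alone the medians were 0.18 and 0.20, the opposite direction. Of 12 keratan sulfate synthesis enzymes, which make the sugar chains of corneal proteoglycans, all 12 had intervals within 2-fold (92.5% of all genes), and none separated the ages.

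Endothelial genes had a median of -0.41, the lowest list median of the lists in the plot, with 2 of 15 lower without overlap (5.23% of all genes). Cdh2, N-cadherin, read 296, 653 and 244 at P14 and 760, 790 and 520 at P7, and Car3, a carbonic anhydrase, 961, 2366 and 970 at P14 and 2125, 3638 and 1618 at P7, so in both the P14 array rich in lens RNA lay near the P7 arrays and the other P14 arrays were low. Atp1b1, a subunit of the sodium pump, read 896, 1550 and 850 at P14 and 1939, 2121 and 1392 at P7 (-0.75). Against P7 replicate 2 alone the list's median was -0.21. Of 9 vessel genes 5 were higher and 1 lower without overlap (4.78% and 5.23% of all genes), with a median of 0.32, and 0.24 against P7 replicate 2 alone. With the Xist level as a covariate the vessel median was 0.03, and over all settings it lay between -0.34 and 0.42. Emcn, a marker of vessel endothelium, read 323, 280 and 225 at P14 and 120, 134 and 147 at P7, while Kdr, a receptor for vascular endothelial growth factor, was lower at 287, 264 and 227 at P14 against 498, 373 and 359 at P7.

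**Figure D4:**
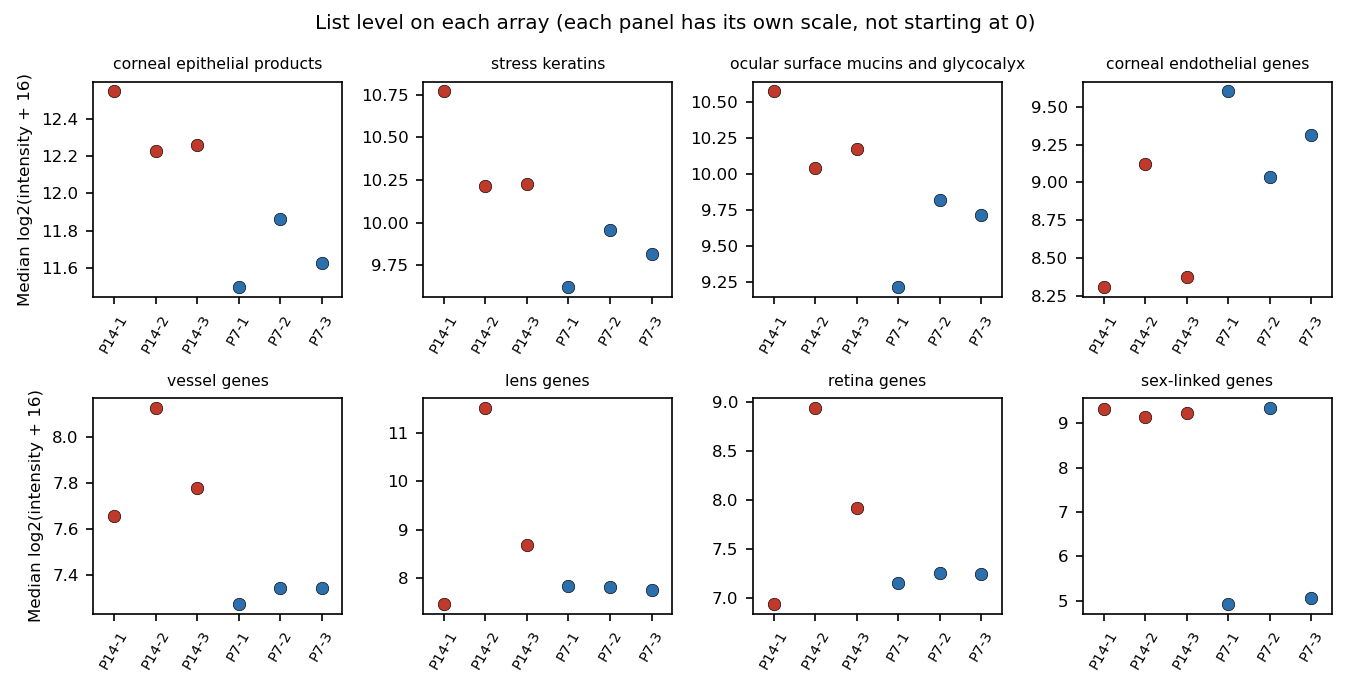
Median log2(intensity + 16) of 8 lists on each array, P14 left of P7, each panel on its own scale. The epithelial, keratin and mucin lists lie above all P7 arrays at P14, lens and retina genes are high on P14 replicate 2, and the sex-linked panel divides P7 replicate 2 from the other P7 arrays.

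Housekeeping genes were close between the ages, and DNA replication genes less so. All 32 DNA replication and mitosis genes had intervals within 2-fold, as had all 24 cytosolic ribosomal protein genes, all 35 respiratory chain genes and all 25 proteasome subunits (92.5% of all genes). Against P7 replicate 2 alone their medians were -0.10 for DNA replication, -0.06 for ribosomal, -0.12 for respiratory chain and -0.18 for proteasome genes. Within 0.5 log2 units of 0 lay the intervals of 23 of 24 ribosomal and 23 of 25 proteasome genes. The counts were 26 of 35 for respiratory chain and 10 of 32 for DNA replication genes (57.4% of all genes). Of the 32 DNA replication genes, 26 had a positive difference, with a list median of 0.12. Eef1a1, the elongation factor, read 11258, 11028 and 10187 at P14 and 10931, 10637 and 10798 at P7, and Rpl23, a ribosomal protein, 12204, 11091 and 11456 at P14 and 10910, 10977 and 10006 at P7, with log2 differences of 0.00 and 0.12. The other genes of highest mean with intervals within 2-fold were Baiap2l1, Sparc, Rps4x, Krt15, Rps29, Rps12, Tmsb10 and Rpl37a, and Tmsb10, an actin-binding peptide, had the largest difference below 0, at -0.19. Of 17 clock genes 15 had intervals within 2-fold.

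The second week was then set against the first. Of 12998 genes, 71 had a difference from P7 to P14 unlike that from P3 to P7 (0.546%), by a test in which the P7 arrays enter both steps: 13 were higher in the second week relative to the first (0.1%) and 58 lower (0.446%). The count was 251 without P14 replicate 1, 33 without P14 replicate 2, 35 without P14 replicate 3 and 14 without P7 replicate 1. In the first week itself, from P3 to P7, 258 genes had changed (1.98%). Both counts take an adjusted p under 0.05 by limma and at least 1 log2 unit. The first step, from day 3 to day 7, spans fewer days than the second, from day 7 to day 14. Aldh3a1, a crystallin enzyme of the cornea, read 325, 281 and 326 at P3, 6250, 5932 and 4361 at P7 and 7196, 4899 and 7148 at P14, so its first step was 4.07 and its second 0.21 on the log2 scale. Tmprss11d, an airway-type serine protease, read 29.9, 32.6 and 68.8 at P3, 1419, 1650 and 661 at P7 and 937, 479 and 839 at P14. Krt12 read 1750, 2383 and 2226 at P3 before the P7 and P14 values given above. Fabp7, a fatty acid binding protein of glia, read 2826, 3127 and 9264 at P3, 333, 575 and 201 at P7 and 728, 863 and 536 at P14. Neurod4, a neural transcription factor, read 1205, 2239 and 5242 at P3, 61.6, 91.1 and 145 at P7 and 106, 461 and 173 at P14. Retina and lens genes had first-week medians of -0.90 and -0.53, and their part in these genes was not tested. Ctla2a read 518, 438 and 590 at P3, 52.0, 145 and 116 at P7 and 432, 276 and 414 at P14. Of the 175 genes called higher in the first week, the median first step was 1.31 and the second 0.10, with 118 of them within 2-fold, and of the 83 called lower these were -1.61 and 0.41, with 29 within 2-fold (92.5% of all genes). Both sets were chosen on a step that shares the P7 arrays with the second, so nothing is read from these shares.

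**Figure D5:**
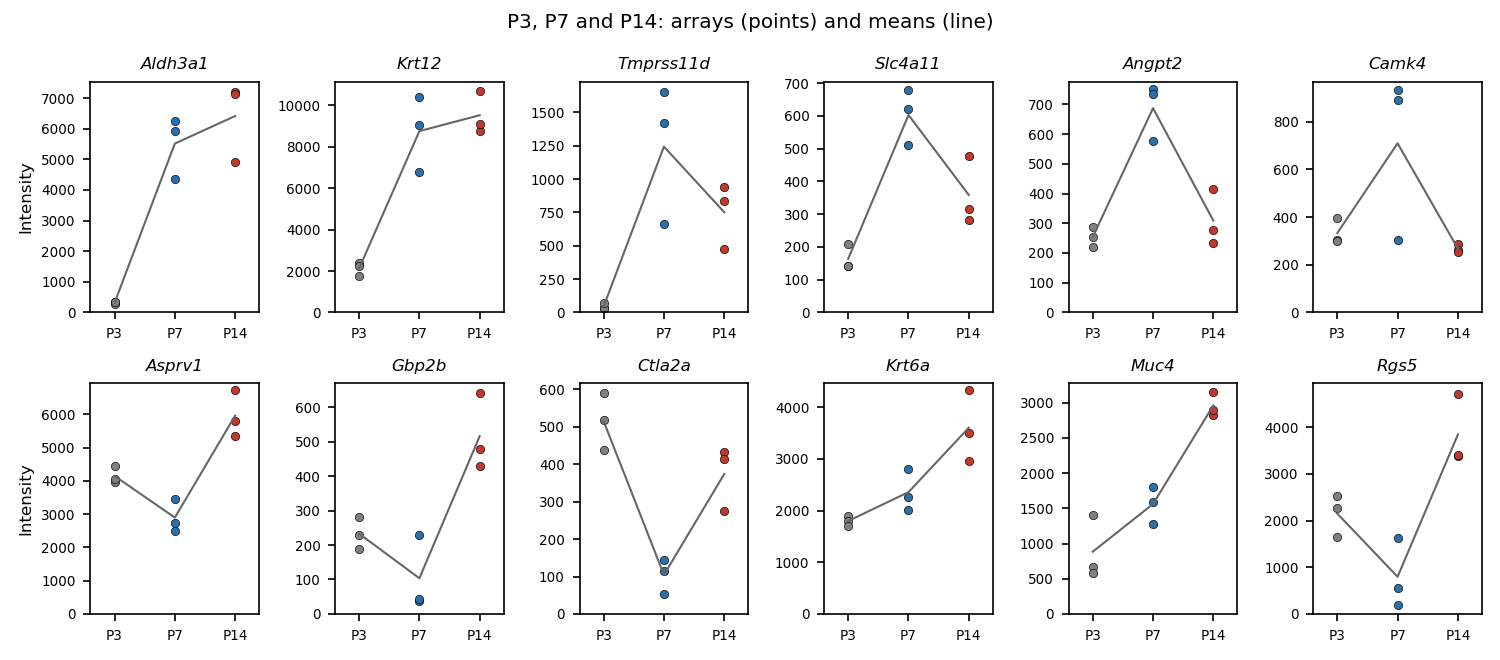
Intensity of 12 genes at P3, P7 and P14, points for arrays and a line through the means. Aldh3a1 and Krt12 reach near their P14 levels by P7, while Muc4, Asprv1 and Gbp2b are higher at P14 than at P7.

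MicroRNA genes, tested through the same poly(A)-primed cDNA, numbered 121, and their probe sets read transcripts of the host locus, not mature microRNAs. By no overlap alone, the measure used for the lists, 2 of the 121 were higher and 6 lower (4.78% and 5.23% of all genes). With no overlap and an unadjusted p under 0.05, none was higher at P14 and 5 were lower, against 1.72% and 2.13% over all genes. These 5 were named after their values were seen. Mir199a-1 read 206, 303 and 274 at P14 and 514, 337 and 548 at P7 (-0.79, adjusted p = 0.339), and Mir15a 232, 155 and 223 at P14 and 330, 306 and 423 at P7 (-0.76, adjusted p = 0.454). The mature sequences of the microRNAs in RefSeq (GRCm38.p6) are shown with bases 2 to 8 in capitals, since the seed sets which targets they pair with, and the 5 loci share no seed among those shown.
mmu-miR-199a-5p: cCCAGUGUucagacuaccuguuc
mmu-miR-199a-3p: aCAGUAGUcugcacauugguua
mmu-miR-15a-5p: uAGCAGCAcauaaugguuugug
mmu-miR-15a-3p: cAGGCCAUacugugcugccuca
mmu-miR-34c-3p: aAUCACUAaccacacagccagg
mmu-miR-485-3p: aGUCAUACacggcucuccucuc
mmu-miR-695: aGAUUGGGcauaggugacugaa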

How the data were processed

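RNA from whole cornea was measured on Affymetrix gene arrays. The values were used as deposited: 1 linear intensity per probe set and array, which the authors computed using PLIER in Affymetrix Expression Console 1.1, as the submitters' processing notes list. Of 35557 probe sets, 21789 carry 1 gene symbol. Probe sets brighter than the array median on 2 or more of 32 whole-cornea arrays entered the analysis (14329), and the brightest of a gene was used (12998 genes). The values entered as log2(intensity + 16), without normalizing them again. One mean per age for 12 ages was fitted with limma 3.58.1 (lmFit, eBayes; R 4.3.3), so that all ages share the estimate of the spread, and p-values were two-sided and Benjamini-Hochberg adjusted over all genes. Groups follow the age labels.

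The members, the 60 gene lists and the tests were chosen with earlier results of these data known. Named genes are list members, genes with an adjusted p under 0.05, the 15 highest and 15 lowest differences without overlap at an unadjusted p under 0.05 (also without P14 replicate 2), the 10 brightest genes with intervals within 2-fold and the 5 largest differences between weeks in each direction. Asprv1 and the microRNA genes were chosen after their values were seen. The replicate numbers were not used to pair the samples. Same-numbered arrays deviated from their age means with r of 0.283, -0.172 and 0.183, and differently numbered ones with r between -0.383 and 0.349. So few arrays cannot settle whether the numbers pair them. Precision is limited by how many arrays there are. The scripts were tested on simulated data. Alternatives are given in the closing section.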

Additional observations from a re-analysis of the deposited data

Results flagged for a closer look

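The step of the second week differed from that of the first for 71 genes, by a test of the difference itself in which P7 enters both steps. The values, second minus first week on the log2 scale, were -5.02 for Tmprss11d, -3.85 for Aldh3a1, -3.54 for Cyp2b19, -3.29 for Tmprss11e and -3.02 for Mia on the lower side. On the higher side they were 3.77 for Mdga2, 3.91 for Gbp2b, 3.98 for Ctla2a, 4.62 for Fabp7 and 5.48 for Neurod4.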

How the results depend on the processing

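Leaving out 1 array at a time, genes with an adjusted p under 0.05 numbered between 1 (without P7 replicate 1) and 14 (without P7 replicate 2), those also differing by 2-fold between 0 and 7, genes with no overlap and an unadjusted p under 0.05 between 140 and 494 higher and between 207 and 729 lower, and genes unlike the first week between 14 and 251. The highest counts came without P7 replicate 2 or P14 replicate 1, and without P3 replicate 2 the last count was 44. Without P7 replicate 2, only P7 arrays of the female pattern stood against P14 arrays of the male one. With a P7 or P14 array left out, no overlap is met more easily, so those counts are not like for like with the main ones. Adjusted calls were 6 with quantile normalization (3 of them 2-fold), 4 with median centring (3) and 1 with trend and robust moderation. They were 0 with the compared ages alone and 1 with only the 18 arrays up to P14. A setting added after seeing the data kept only the Xist-low arrays of P14 and P7, with every array of the other ages. The 2-fold calls were 1 with an offset of 1, 2 with the lens level as a covariate and 1 with the Xist level as a covariate, which left 172 genes lower with no overlap and an unadjusted p under 0.05. Quantile normalization gave 368 genes higher by the same criterion and 159 unlike the first week. Genes unlike the first week numbered 46 with the compared ages alone, 17 with the 18 arrays, 44 with the Xist level and 13 with the Xist-low arrays. Of the genes unlike the first week, 18.3% were on the higher side, against 42.1% with quantile normalization and 45.7% with the compared ages alone. Array weights, whose estimate did not converge, gave 1181 adjusted calls, 119 of them 2-fold, with 340 higher and 445 lower by that criterion and 683 unlike the first week. Without the filter 18881 genes had intervals within 2-fold, since more were tested. With the replicate number as a block, 2 genes had an adjusted p under 0.05 and 54 were unlike the first week, and not every array correlated best with its own number. The cause of these moves was not tested. Of the genes named by rank or test (not as list members), 6 turned sign in some alternative, and none of these values had an adjusted p under 0.05. Ifi203 was -0.041 with the Xist-low arrays alone, where Sparc was 0.16, and Sparc was also 0.010 with the lens covariate and between -0.196 and 0.018 leaving out 1 array. Eef1a1, at 0.0035, became -0.13 with quantile normalization, -0.064 with array weights, -0.000929 with the lens covariate and between -0.025 and 0.0466 leaving out 1 array. Rps29 was -0.029 with quantile normalization, Cyp2b19 0.35 with array weights and between -0.508 and 0.074 leaving out 1 array, and Tmprss11e between -0.420 and 0.062. Of 1260 list medians 52 moved by more than the spread between arrays, and 82, in 43 lists, had the opposite sign, 26 of them with the Xist-low arrays alone.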
